A study of Mus musculus with 15 samples.

Results

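Cells of the prefrontal cortex (PFC) of mice that had self-administered cocaine were compared with cells of mice that had self-administered saline, both taken 48 h after the last session. The members were all retained adult cells whose deposited annotation gives withdrawal at 48 h, which are 6594 of the 24822 adult cells and of the 35360 cells of the whole series. They come from 4 libraries: libraries 5 and 7 (saline, 1506 and 1751 cells) and libraries 6 and 8 (cocaine, 1507 and 1830 cells). All mice were male C57BL/6N of 8 to 10 weeks. Tissue of 2 mice was pooled for each library, so that a library and not a mouse is the replicate, and controls pressed for saline in the same intravenous procedure after the same food training and catheter surgery. The series also holds 8 adult libraries taken at the end of cocaine or saline maintenance and at 15 days of withdrawal, which were used here for the spread between libraries and as a background for each gene. Cells were dissociated with papain and captured in droplets, and reads were collapsed by unique molecular identifier (UMI), a random tag that is put on each captured mRNA, so that a count of UMIs is a count of molecules.

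Cocaine blocks the reuptake of dopamine and other monoamines, and the PFC, which receives dopamine fibres from the midbrain, takes part in the control of drug seeking. Early withdrawal is the time at which intake has stopped while relapse can still be triggered. Excitatory neurons carry the output of this cortex, inhibitory neurons restrain them, astrocytes clear transmitter and feed neurons, oligodendrocytes make myelin, microglia are the resident immune cells, and endothelial cells line the vessels and meet a drug in the blood first.

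In all, 12449647 and 19814919 UMIs were counted in the saline libraries and 13130304 and 20336658 in the cocaine libraries, so the shallower and the deeper library were alike in depth between treatments. The labels name the nucleus accumbens in the tissue field and the PFC in the title and source. Excitatory neurons made up 45.5% to 64.1% of the cells, and the cortical excitatory genes Slc17a7, Neurod6 and Tbr1 were all detected in them in every library. Some genes of striatal projection neurons were also present: the list of 10 such markers summed to 534 and 521 CPM in the inhibitory neurons of the saline libraries and to 149 and 1228 CPM in those of the cocaine libraries, mostly from Tac1, Penk, Pde10a and, in library 8, Meis2. CPM are the UMIs of a gene in a class of a library, scaled to a common total of UMIs once mitochondrial and ribosomal protein genes had been removed. Drd1a had 0 to 11 UMIs in these neurons and Drd2 no more than 1 UMI. The paper states that the PFC was cut out of brain slices, and it gives Meis2 as a marker of an inhibitory subtype there. The tissue is therefore taken as PFC here, and the origin of single cells was not tested. No pair of the 4 libraries shared more than 4 cell barcodes. Classes are the deposited clusters grouped by name. The 8 astrocyte markers summed to 25091 to 29180 CPM in astrocytes. Newly formed oligodendrocytes held 7787 to 9079 CPM of their own markers and 25965 to 43763 CPM of those of mature oligodendrocytes, and endothelial cells held 17761 to 20354 CPM of their own markers and 48847 to 75157 CPM of red blood cell genes. Markers of pericytes and smooth muscle summed to 6352 to 8003 CPM in endothelial cells, so this class also holds RNA of other vessel cells. Haemoglobin and other red blood cell genes were lower in both cocaine libraries in 6 of the 8 classes. How that RNA was spread over cells differed between classes. In mature oligodendrocytes of library 5, 3 cells held 4534 of 4614 such UMIs. In endothelial cells of library 5, 54 of 345 cells held 98016 of 98575. In excitatory neurons of library 8 it was found in 672 of 914 cells, with at most 68 UMIs in a cell.

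Astrocytes were the class whose share of cells separated the treatments. They made up 3.25% (95% Wilson interval 2.47 to 4.28) and 3.14% (2.42 to 4.07) of the saline libraries, as 49 and 55 cells. In the cocaine libraries they made up 8.83% (7.50 to 10.4) and 7.49% (6.37 to 8.78), as 133 and 137 cells. The means were 8.16% ± 0.947 in cocaine and 3.20% ± 0.080 in saline (SD, n = 2 libraries each), a difference of 4.96 percentage points. Both cocaine libraries lay above both saline libraries, and they held more cells in each of the 8 astrocyte clusters. With 2 libraries against 2 the smallest two-sided p of an exact permutation test is 0.333, so no share could pass a threshold of 0.05 in that test, and no other test was run on the shares. Among cells with at least 1500 detected genes the astrocyte shares were 1.10% and 1.32% in saline and 3.49% and 5.94% in cocaine. In the other groups the share ran from 0.758% to 19.9% in the saline libraries of maintenance, from 5.91% to 8.58% in cocaine at maintenance, from 5.52% to 8.84% in saline at 15 days and from 1.87% to 4.26% in cocaine at 15 days. At 48 h the low values were thus those of saline, and at 15 days those of cocaine.

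The other 7 classes overlapped between treatments. Excitatory neurons were 45.5% and 64.1% of the saline libraries and 51.3% and 49.9% of the cocaine libraries. Library 8 held more cells than the other libraries in several clusters: the inhibitory cluster Inhib_3 had 58 cells there and 4, 1 and 1 in libraries 5, 7 and 6, Endo_12 had 51 against 19, 5 and 4, Endo_9 had 40 against 32, 12 and 7, and Oligo_13 had 11 against 1, 2 and 5. Microglia were 10.7% and 4.40% of the saline libraries and 12.7% and 6.07% of the cocaine libraries, so that the shallower library of each treatment had the higher share.

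**Figure D1:**
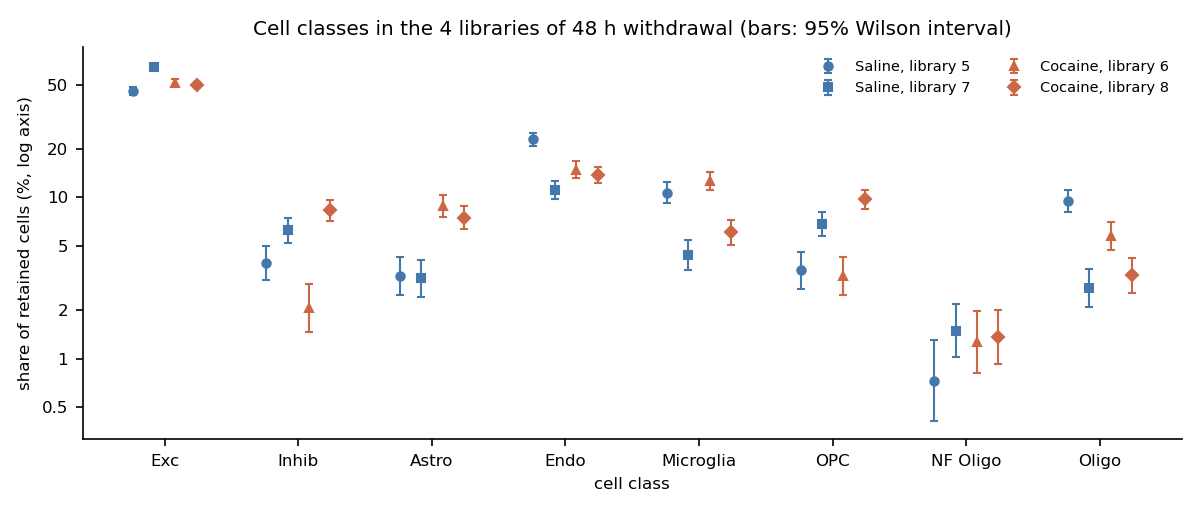
Share of cells (%) of each class in the 4 libraries of 48 h withdrawal, with saline and cocaine libraries as separate marks and 95% Wilson intervals that cover counting error only. Astrocytes are at 3.14% and 3.25% in saline and 7.49% and 8.83% in cocaine, and in every other class the treatments overlap.

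Few genes differed between cocaine and saline at 48 h beyond the spread between libraries. The UMIs of all cells of a class were added up for each library, and a call required an adjusted p (Benjamini-Hochberg, edgeR quasi-likelihood test) below 0.05 together with a change above 1.5-fold. Of 60493 pairs of a gene and a class, 5 were called, against 6 for the same contrast at maintenance and 205 at 15 days of withdrawal. The libraries of 15 days were larger, with 2512 to 3784 retained cells each. Those of 48 h held 1506 to 1830 cells and those of maintenance 1055 to 1504 cells. The numbers of calls were not adjusted for this and do not compare the size of the response between phases. In endothelial cells 2 of 10057 tested genes rose (0.0199%), in oligodendrocyte precursors 1 rose and 1 fell of 5900 (0.0339%), and in inhibitory neurons 1 rose of 8687 (0.0115%).

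The remaining 5 classes gave 0 calls with edgeR. In excitatory neurons 0 of 13171 genes were called (0%), with 651 at an unadjusted p below 0.05 and 3 calls in DESeq2 (Tubb2b, Hpcal1 and Zmym1). In astrocytes 0 of 7415 were called (0%), with 293 at an unadjusted p below 0.05 and 5 in DESeq2. Those 5 were Myoc and 4 haemoglobin genes. Microglia had 0 of 5209 (0%), with 154 at an unadjusted p below 0.05 and 0 in DESeq2. Newly formed oligodendrocytes had 0 of 3617 (0%), with 130 at an unadjusted p below 0.05 and 0 in DESeq2. Mature oligodendrocytes had 0 of 6437 (0%), with 359 at an unadjusted p below 0.05 and 4 in DESeq2, all of them haemoglobin genes.

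Counts of genes whose libraries did not overlap served as a background for the gene lists that follow. Genes with both cocaine libraries above both saline libraries were 19.6% of those tested in excitatory neurons, 14.7% in inhibitory neurons, 18.6% in astrocytes, 12.7% in endothelial cells, 16% in microglia, 16.3% in oligodendrocyte precursors, 14.1% in newly formed and 16.5% in mature oligodendrocytes. Those with both cocaine libraries below were, in the same order, 13.7%, 15.7%, 13.6%, 19.8%, 17.3%, 15.6%, 16.2% and 15.8%. Endothelial cells therefore had more genes lower than higher, and excitatory neurons and astrocytes more genes higher than lower.

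Both genes called in endothelial cells rose. Cdkn1a (ENSMUSG00000023067, NCBIM37 chr17:29227924-29237667, plus strand), which encodes the cyclin-dependent kinase inhibitor p21, a p53 target that halts the cell cycle, was at 399 and 371 CPM in the saline libraries and at 725 and 730.0 CPM in the cocaine libraries. The pairs did not overlap and differed by 0.99 ± 0.17 on the log2 scale (SE, adjusted p = 0.0243). The 8 adult libraries of the other phases were at 394 to 611 CPM, so that both cocaine libraries of 48 h lay above every other adult library and the saline libraries lay below it or near its low end. The same contrast was 0.20 ± 0.17 at maintenance and -0.19 ± 0.16 at 15 days. Across the 13 deposited endothelial clusters, Cdkn1a was higher in both cocaine libraries in 10, and in 6 of the 6 clusters with at least 10 cells in every library. These clusters come from the same 4 libraries and are not separate replicates.

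Hbegf (ENSMUSG00000024486), a membrane-bound growth factor that activates the epidermal growth factor receptor, was at 131 and 161 CPM in saline and 258 and 280.3 CPM in cocaine. It rose by 0.97 ± 0.16 on the log2 scale (adjusted p = 0.0243). The other adult libraries ran from 182 to 280.1 CPM. Its cocaine libraries at 48 h therefore lay within or just above the range of the other phases, and its saline libraries below it. The contrast was 0.07 ± 0.16 at maintenance and -0.03 ± 0.15 at 15 days. Hbegf was higher in both cocaine libraries in 8 of 13 clusters and in 3 of the 6 large ones.

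Both endothelial calls held in DESeq2 (its adjusted p was 0.0137 for Cdkn1a and 0.0378 for Hbegf), in a fit of the 4 libraries alone, without haemoglobin genes, and without clusters Endo_2, Endo_9, Endo_12 and Endo_13. They were lost with equal numbers of cells per library (log2 0.91, adjusted p = 0.138 for Cdkn1a and 0.82, adjusted p = 0.158 for Hbegf), without library 5 (adjusted p = 0.295 and 0.385) and without library 8 (adjusted p = 0.577 for both), and Cdkn1a also without library 7 (adjusted p = 0.14). The summed endothelial markers were 18135 and 17761 CPM in saline and 19515 and 20354 CPM in cocaine, and the red blood cell genes 62967 and 75157 CPM against 48847 and 57938 CPM. Both sets separated the treatments, and their part in the 2 calls was not tested beyond the fit without haemoglobin genes.

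In the other classes Cdkn1a was not called. In mature oligodendrocytes it was at 17.6 and 5.52 CPM in saline and 10.1 and 247 CPM in cocaine. Astrocytes had 7.14 and 0 CPM in saline and 9.99 and 71.6 CPM in cocaine. In inhibitory neurons the levels were 19.5 and 37.8 CPM in saline and 53.1 and 116 CPM in cocaine. Library 8 was thus the highest in all 3 classes, whereas in excitatory neurons the saline libraries were at 148 and 144 CPM and the cocaine libraries lower, at 140 and 115 CPM.

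**Figure D2:**
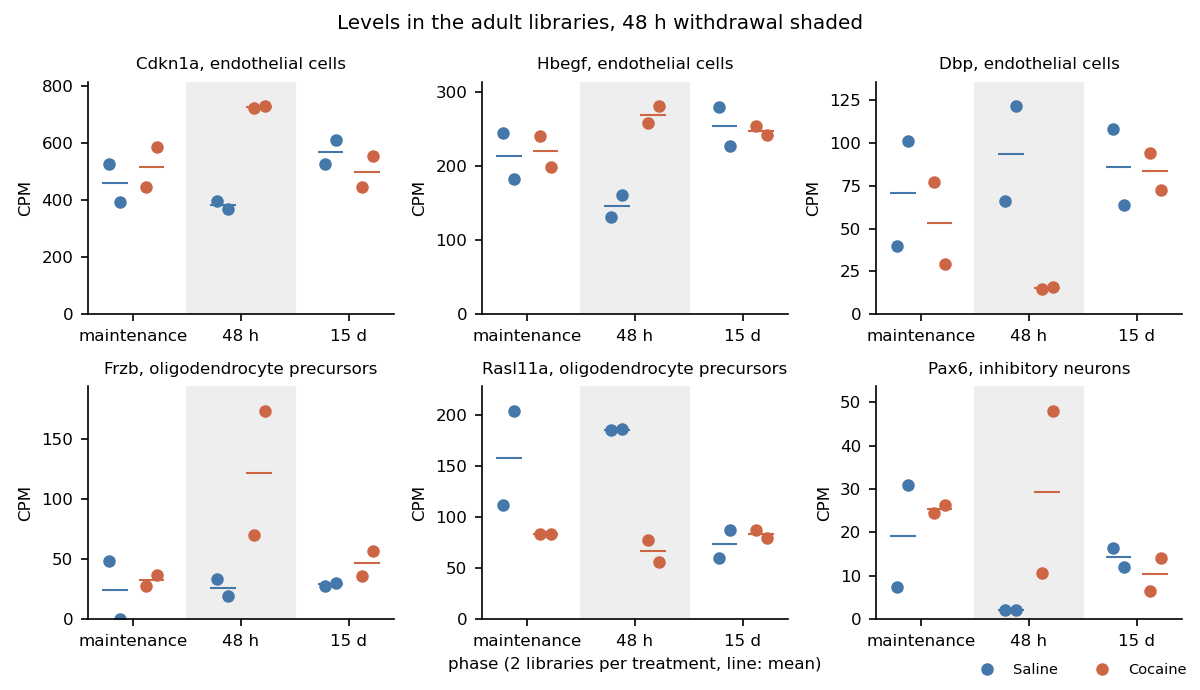
Level (CPM, linear axis from 0) of Cdkn1a and Hbegf in endothelial cells and of further named genes in the classes named above the panels, in the 12 adult libraries by phase; points are libraries, lines are means of 2 libraries per treatment, and 48 h of withdrawal is shaded. The precursor value of 1 saline library of maintenance rests on fewer than 10 cells. Endothelial Cdkn1a is at 725 and 730.0 CPM in cocaine at 48 h, above the 394 to 611 CPM of the other phases.

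Oligodendrocyte precursors divide in the adult brain and give rise to myelinating cells, and 1 gene rose and 1 fell in them. Rasl11a (ENSMUSG00000029641, NCBIM37 chr5:147656647-147659302, plus strand), a small GTPase of the Ras family, was at 185 and 186 CPM in saline and at 77.3 and 56.2 CPM in cocaine. It fell by 1.58 ± 0.33 on the log2 scale (adjusted p = 0.026). The other adult libraries ran from 60.0 to 204 CPM with a median of 85.4 CPM, where the value of 204 CPM is 2 UMIs in library 3 (saline, maintenance), which had fewer than 10 precursors and was left out of the fits of this class. The next highest was 112 CPM, so it was the saline pair of 48 h that stood apart. The contrast was -0.41 at maintenance, where saline is then 1 library, and 0.17 at 15 days. The call was kept in 5 of 13 alternatives, with changes between -1.70 and -1.28.

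Frzb (ENSMUSG00000027004, NCBIM37 chr2:80252127-80287782, minus strand), a secreted antagonist of Wnt ligands, was at 33.1 and 19.5 CPM in saline and 70.3 and 173 CPM in cocaine. It rose by 2.52 ± 0.43 (log2, adjusted p = 0.000879). The counts behind it were 5 and 7 UMIs in saline and 10 and 108 UMIs in cocaine. In library 8 the 108 UMIs came from 29 of 178 cells, and 74 of them from cluster OPC_2. Markers of pericytes and smooth muscle summed in precursors to 26.5 and 25.0 CPM in saline and 21.1 and 226 CPM in cocaine. Library 8 was thus the highest for them too, and their part in the rise was not tested. Without OPC_2, an alternative chosen after the data were seen, the change was 1.48 with an adjusted p of 0.999. Without library 8 it was 1.49 with an adjusted p of 1, and DESeq2 gave an adjusted p of 1. The call was kept in 6 of 13 alternatives.

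In inhibitory neurons the called gene was Pax6 (ENSMUSG00000027168, NCBIM37 chr2:105509053-105543317, plus strand), a homeobox transcription factor that is retained in some interneurons. Its region overlaps Elp4 and Pax6os1 on the opposite strand. Saline libraries were at 2.16 and 2.10 CPM and cocaine libraries at 10.6 and 48.0 CPM, from 1 and 2 UMIs against 3 and 50 UMIs, with a rise of 4.06 ± 0.72 (log2, adjusted p = 0.0481). The 8 other libraries were at 6.53 to 30.9 CPM, so both saline libraries of 48 h were lower than any of them. Cluster Inhib_3 of library 8 held 38 of its 50 UMIs. The call was kept in 3 of 11 alternatives. It was lost in DESeq2 (adjusted p = 0.344), with DESeq2 size factors (adjusted p = 0.0512), with depth as a covariate (adjusted p = 0.36) and without library 5, 7 or 8, and without library 8 the change was 2.24. Without Inhib_3 the change was 2.56 with an adjusted p of 1. The markers of olfactory bulb and migrating interneurons, cells in which Pax6 is known to be expressed, summed in this class to 1233 and 902 CPM in saline and 743 and 1936.5 CPM in cocaine. Library 8 was the highest, as it was for the striatal markers given above. Meis2 is a member of both lists, so their sums are not independent of each other. Endothelial markers were at 34.6 and 33.6 CPM against 117 and 102 CPM, and the part of these marker sums in the result was not tested.

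**Figure D3:**
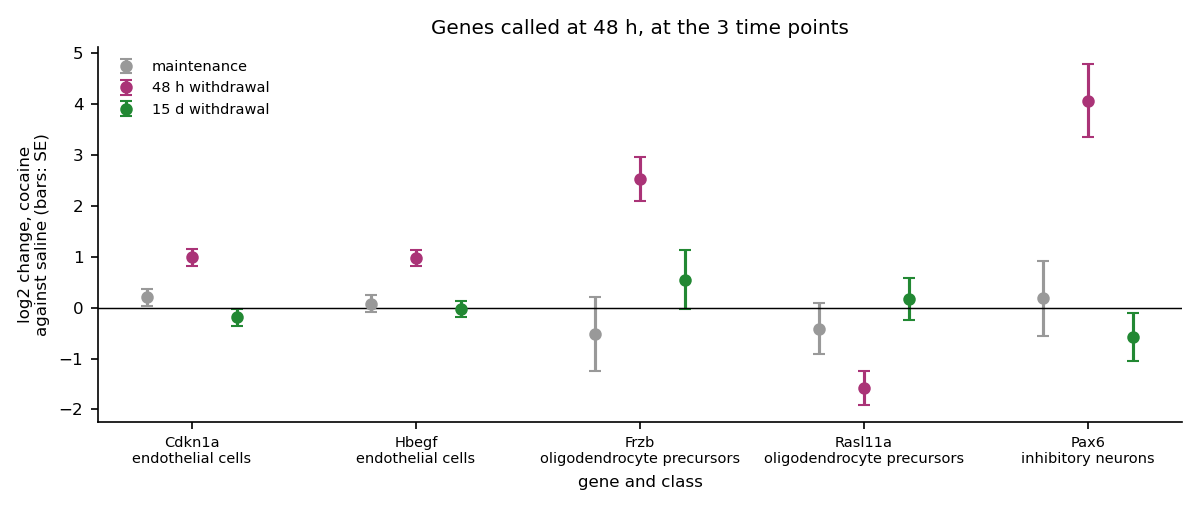
Log2 change of cocaine against saline (y axis, bars are SE) for the 5 pairs of gene and class called at 48 h, at maintenance, 48 h and 15 days of withdrawal. The 5 genes were chosen at 48 h, where Frzb, Pax6, Cdkn1a and Hbegf are above 0 and Rasl11a is at -1.58; endothelial Cdkn1a is at 0.20 at maintenance and -0.19 at 15 days. For the precursor genes, saline at maintenance is 1 library.

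Gene lists of known pathways were described by the number of members whose libraries did not overlap, beside the same share of all genes. Of 123 pairs of a list and a class with at least 10 tested members, 11 had at least 50% of the members in 1 direction, and 1 list member was called, Cdkn1a in endothelial cells. Single genes named as examples of a list below were chosen after their values were seen, and none of them passed the edgeR test over all libraries.

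Heat shock proteins are chaperones that fold new and damaged proteins and are induced through heat shock factors under stress. In endothelial cells 14 of 26 tested chaperones and cochaperones were higher in both cocaine libraries and 0 were lower (53.8%, against 12.7% of all genes). Their median log2 change was 0.30, against 0.02 over all tested genes, and was 0.08 at maintenance and 0.09 at 15 days. In the edgeR test 8 members had an unadjusted p below 0.05 and 0 were called, with a lowest adjusted p of 0.468. The count was 12 to 16 and the median 0.24 to 0.31 under the alternatives.

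Among them, the constitutive chaperone Hspa8 (NCBIM37 chr9:40609067-40613283, plus strand, with small nucleolar RNA genes on the same strand inside it) was at 1327 and 1388 CPM in saline and 2358 and 2050.5 CPM in cocaine (log2 0.76 ± 0.23, adjusted p = 0.624). Its pairs did not overlap, and both cocaine libraries were higher in 11 of 13 endothelial clusters. Among these were all 6 clusters with at least 10 cells in every library. However, library 8 lay within the 1239 to 2233 CPM of the other phases. Hsp90aa1, the inducible cytosolic HSP90, was at 441 and 531 CPM in saline and 761 and 702 CPM in cocaine (log2 0.66 ± 0.17, adjusted p = 0.468), both within the 426 to 764 CPM of the other phases. Dnaja1, a cochaperone that hands substrates to HSP70, was at 429 and 379 CPM against 615 and 542 CPM. Stip1, the adaptor between HSP70 and HSP90, was at 74.1 and 72.0 CPM against 112 and 99.0 CPM. In each of these the 2 cocaine libraries lay above the 2 saline libraries.

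Mature oligodendrocytes held the list with the highest share. Of 23 tested members 16 were higher in both cocaine libraries and 0 were lower (69.6%, against 16.5% of all genes), and all 23 had a positive log2 change. The median was 0.52, against 0.00 over all genes, 0.34 at maintenance and -0.08 at 15 days. Ahsa1, which activates the ATPase of HSP90, was at 359 and 381 CPM in saline and 558 and 719 CPM in cocaine (log2 0.78 ± 0.18, adjusted p = 0.199). Hsph1, a nucleotide exchange factor of HSP70, was at 90.4 and 93.8 CPM in saline and 209.7 and 172 CPM in cocaine (log2 1.06 ± 0.28, adjusted p = 0.397). Hspe1, the mitochondrial cochaperonin, was at 274 and 276 CPM against 504 and 415 CPM. The count stood at 16 in every alternative in which it was taken. No member was called by edgeR over all libraries, and Ahsa1 was called without library 6 (adjusted p = 0.0191). Red blood cell genes in this class were at 11586 and 9040 CPM in saline and 74.4 and 146 CPM in cocaine, and the median stayed between 0.43 and 0.65 over the alternatives, among them the fit without these genes.

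In the other classes fewer than 50% of the members were higher in both cocaine libraries. They were 7 of 22 in microglia (31.8%, against 16% of all genes), 6 of 20 in newly formed oligodendrocytes (30%, against 14.1%), 6 of 24 in astrocytes (25%, against 18.6%), 5 of 22 in oligodendrocyte precursors (22.7%, against 16.3%), 5 of 24 in excitatory neurons (20.8%, against 19.6%) and 3 of 23 in inhibitory neurons (13%, against 14.7%). The last 2 shares were near those of all genes. Members lower in both were 2, 1, 1, 2, 3 and 0, in the same order. Of all genes, 17.3%, 16.2%, 13.6%, 15.6%, 13.7% and 15.7% were lower in both in these classes. The medians were 0.31 in microglia, 0.30 in newly formed oligodendrocytes, 0.13 in astrocytes, 0.10 in oligodendrocyte precursors, 0.08 in inhibitory neurons and -0.02 in excitatory neurons. Whether classes differed in this list was not tested.

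The promoters of chaperone genes that carry inverted repeats of GAA and TTC are shown because these repeats are the letters that heat shock factors bind. Sequences are the 250 bases before the first start listed for a gene by RefSeq (GRCm38.p6), written 5′ to 3′ on the gene's strand, with matches to GAANNTTC or TTCNNGAA in capitals; both motifs read the same on either strand, and they may overlap. Hsph1 spans chr5:149636337-149636586 on the minus strand, with its match ending 25 bases before the start. Hspe1 spans chr1:55087898-55088147 on the plus strand, with 3 overlapping matches. Dnaja1 spans chr4:40722218-40722467 on the plus strand, with 1 match.
Hsph1: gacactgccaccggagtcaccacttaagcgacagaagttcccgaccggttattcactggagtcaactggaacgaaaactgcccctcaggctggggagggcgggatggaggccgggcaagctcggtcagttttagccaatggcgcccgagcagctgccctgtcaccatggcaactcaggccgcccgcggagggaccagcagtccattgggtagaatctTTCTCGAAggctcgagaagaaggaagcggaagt
Hspe1: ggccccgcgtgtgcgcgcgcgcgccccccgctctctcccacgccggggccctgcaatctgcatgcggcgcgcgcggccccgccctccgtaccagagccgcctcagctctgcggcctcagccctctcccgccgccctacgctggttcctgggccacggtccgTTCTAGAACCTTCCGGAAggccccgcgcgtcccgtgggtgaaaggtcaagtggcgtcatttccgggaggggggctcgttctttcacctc
Dnaja1: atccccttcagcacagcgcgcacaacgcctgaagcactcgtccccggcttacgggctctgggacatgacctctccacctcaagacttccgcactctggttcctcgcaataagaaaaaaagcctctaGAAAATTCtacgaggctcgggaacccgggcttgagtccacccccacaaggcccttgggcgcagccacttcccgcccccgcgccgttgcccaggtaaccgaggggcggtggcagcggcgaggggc

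Of 21 heat shock genes of the list with a promoter in the RefSeq table, 7 held either motif (33.3%), against 12.9% of 27025 genes with the same window. GAANNTTC was in 6 of them (28.6%, against 6.78%) and TTCNNGAA in 2 (9.52%, against 7.1%). The 7 genes were Dnaja1, Fkbp4, Hspa1a, Hspa1b, Hspb1, Hspe1 and Hsph1. A match describes letters in this window and is not a measured binding site.

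The circadian clock runs in nearly every cell: CLOCK and BMAL1 drive the Per and Cry genes, which repress them, and the output factors Dbp, Tef and Hlf. In endothelial cells 10 of 16 tested clock genes were lower in both cocaine libraries and 0 were higher (62.5%, against 19.8% of all genes). Their median log2 change was -0.40, 5 had an unadjusted p below 0.05 and 0 were called by edgeR (lowest adjusted p = 0.565). The count was 8 to 10 and the median -0.48 to -0.26 under the alternatives. Clock transcripts are known to vary over the day, and the labels give no time of collection for the libraries. Summed markers of mature oligodendrocytes were in endothelial cells at 63.9 and 72.0 CPM in saline and 310 and 89.5 CPM in cocaine. Those of microglia were at 105 and 85.2 CPM against 65.6 and 78.4 CPM, and those of oligodendrocyte precursors at 87.5 and 92.4 CPM against 64.5 and 75.2 CPM. Their part in this list and in the other endothelial lists was not tested.

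Dbp (NCBIM37 chr7:52960458-52965525, plus strand, overlapping Sphk2 on the opposite strand) was at 65.8 and 121 CPM in saline and 14.5 and 15.8 CPM in cocaine. It had 103 and 101 UMIs against 13 and 20 UMIs (log2 -2.49 ± 0.74, adjusted p = 0.734), and both cocaine libraries were lower in 13 of 13 endothelial clusters. Only 6 of these clusters had at least 10 cells in every library, so the cocaine values of single clusters rest on few UMIs. The clusters share the same 4 libraries and are not separate replicates. The other adult libraries were at 29.4 to 108 CPM, so the cocaine pair of 48 h was below all of them. Nr1d1, the repressor REV-ERB alpha, was at 92.0 and 119 CPM in saline and 21.1 and 33.3 CPM in cocaine (log2 -1.82 ± 0.89). Nr1d2, its relative, was at 74.1 and 72.0 CPM against 37.8 and 46.7 CPM (log2 -0.70 ± 0.21, adjusted p = 0.565). Tef was at 94.5 and 76.8 CPM against 52.3 and 61.0 CPM. Per3, Cry1, Cry2, Hlf, Bhlhe41 and Gm129 were also lower in both cocaine libraries, and Per1, Per2, Clock, Bhlhe40, Rora and Rorb overlapped. In the fit of the 4 libraries alone, Dbp, Nr1d1 and Gm129 were among 8 called endothelial genes.

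In astrocytes 7 of 14 tested clock genes were lower in both cocaine libraries (13.6% of all genes were), with a median of -0.24. Under the alternatives the count was 5 to 7 and the median -0.37 to -0.08. Dbp was there at 71.4 and 113 CPM in saline and 47.5 and 61.7 CPM in cocaine. In excitatory neurons 7 of 18 were higher (38.9%, against 19.6% of all genes) and 0 lower (13.7% of all genes), with a median of 0.15. Whether classes differed in the clock list was not tested. In excitatory neurons Bhlhe40, a repressor of the clock, was at 46.5 and 36.4 CPM in saline and 57.1 and 60.3 CPM in cocaine.

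CLOCK and BMAL1 bind the E-box CACGTG, which reads the same on both strands. It was in the 250 bases before the start of 4 of 15 clock genes with a promoter in the RefSeq table (26.7%: Bhlhe41, Cry1, Per1 and Tef), against 6.05% of all 27025 genes. The window of Tef, chr15:81802423-81802672 on the plus strand of GRCm38.p6, is shown as the gene of the 4 given with values above, with the E-box in capitals; Dbp and Nr1d1 had 0 matches in theirs.
Tef: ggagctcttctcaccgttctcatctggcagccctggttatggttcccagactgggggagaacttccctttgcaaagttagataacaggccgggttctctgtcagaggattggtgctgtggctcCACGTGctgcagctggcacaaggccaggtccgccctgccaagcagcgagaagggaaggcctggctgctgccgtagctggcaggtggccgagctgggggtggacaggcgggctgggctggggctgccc

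**Figure D4:**
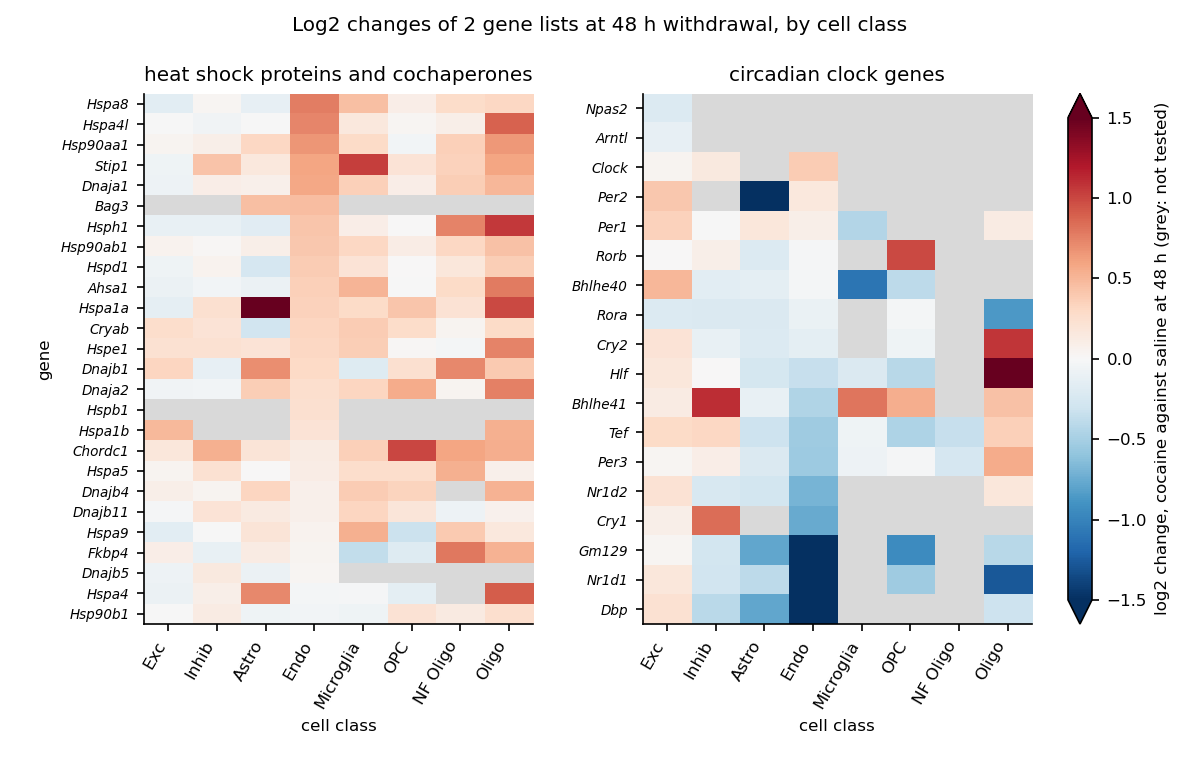
Log2 change of cocaine against saline at 48 h (colour, saturated beyond 1.5 in either direction) for each member of the heat shock list and of the clock list (rows) in the 8 classes (columns), with genes below the filter on low counts in grey. All 23 heat shock members tested in mature oligodendrocytes are above 0, and endothelial Dbp is at -2.49.

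**Figure D5:**
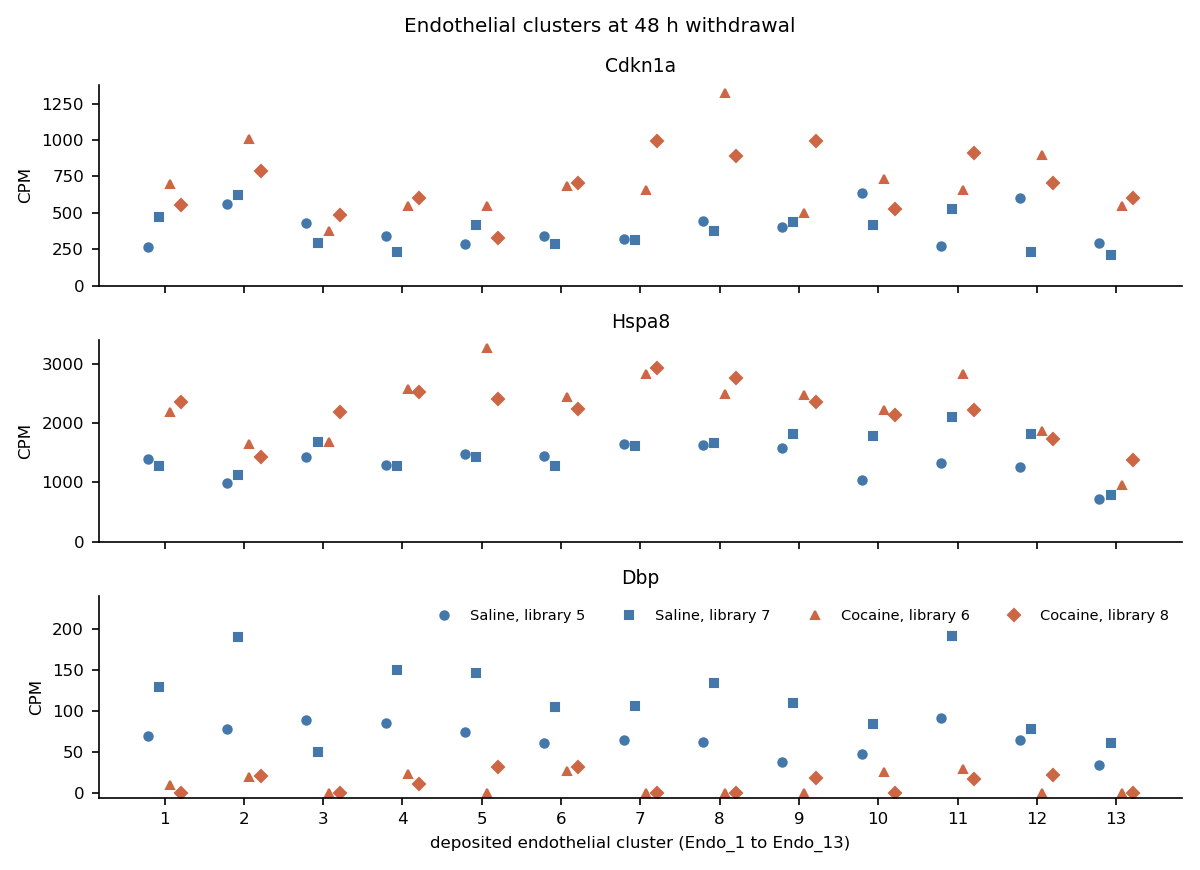
Level (CPM) of Cdkn1a, Hspa8 and Dbp in each deposited endothelial cluster (x axis) of the 4 libraries of 48 h withdrawal, 1 point per library. Dbp is lower in both cocaine libraries in 13 of 13 clusters, Hspa8 is higher in 11 and Cdkn1a in 10, and all clusters share the same 4 libraries. Only 6 clusters have at least 10 cells in every library.

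Immediate early genes are switched on within minutes of stimulation, and late activity genes follow them. The tissue was incubated in papain before the cells were captured. The part of this step in the levels of these lists and of the heat shock list was not tested. In endothelial cells 8 of 25 immediate early genes were higher in both cocaine libraries (32%, against 12.7% of all genes) and 0 lower (median log2 0.26). Fos was at 6875 and 8055.5 CPM in saline and 9636 and 8655 CPM in cocaine. Nr4a1, a nuclear receptor, was at 282 and 288 CPM against 423 and 348 CPM. Of 13 late genes 9 were higher (69.2%) and 1, Bdnf, was lower, with a median of 0.43. Cdkn1a is a member of this list, and Rgs2, a regulator of G protein signalling, was at 12.8 and 16.8 CPM against 25.6 and 25.3 CPM.

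Astrocytes had 9 of 19 immediate early genes higher (47.4%, against 18.6% of all genes) and 0 lower (median 0.47), and 6 of 12 late genes higher (50%, median 0.60). Under the alternatives the late count was 4 to 6 and its median 0.32 to 0.85. Fos in astrocytes was at 578 and 400 CPM in saline and 879 and 686 CPM in cocaine (log2 0.69, adjusted p = 0.995). Egr1, a zinc finger factor, was at 57.1 and 28.2 CPM against 79.9 and 71.6 CPM. Fosb had 0 and 0 UMIs in saline and 5 and 11 UMIs in cocaine. None was called by edgeR, and these values come from only 49 and 55 saline astrocytes. In astrocytes the summed markers of mature oligodendrocytes were at 207 and 101 CPM in saline and 232 and 272 CPM in cocaine, and those of newly formed oligodendrocytes at 178 and 169 CPM against 215 and 201 CPM. The striatal markers were at 328 and 282 CPM against 362 and 362 CPM. All 3 sums were higher in both cocaine libraries, and their part in these lists was not tested. In other classes the immediate early genes did not all rise. In microglia Fos, Btg2, Jund and Nr4a1 were lower in both cocaine libraries, and Egr2 and Zfp36 higher. Of all genes there, 17.3% were lower and 16% higher. In newly formed oligodendrocytes Cyr61, Jun, Klf6, Egr1 and Nr4a1 were lower and Zfp36 higher. Of all genes there, 16.2% were lower and 14.1% higher. Zfp36 was at 0 and 32.6 CPM in saline and 160 and 33.4 CPM in cocaine. The summed microglia markers in this class were at 1283 CPM in library 6 and at most 51.0 CPM in the other libraries. Their part in Zfp36 was not tested. Mature oligodendrocytes had Fos, Dusp1 and Junb higher (16.5% of all genes were). Most tested members of the list overlapped in each of these classes. Whether classes differed in the immediate early list was not tested.

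In excitatory neurons, where 19.6% of all genes were higher in both cocaine libraries and 13.7% lower, 4 of 27 immediate early genes were higher (14.8%) and 5 lower (18.5%), with a median of -0.01. Of 20 late genes 1 was higher (5%) and 6 were lower (30%), with a median of -0.16. In this class the summed striatal markers were at 314 and 291 CPM in saline and 330 and 348 CPM in cocaine, and those of mature oligodendrocytes at 87.5 and 75.2 CPM against 98.7 and 104 CPM. The red blood cell genes were at 222 and 229.5 CPM against 72.2 and 101 CPM. All 3 sums separated the treatments, and their part in these lists was not tested. Fos was at 73.9 and 56.1 CPM in saline and 52.9 and 61.9 CPM in cocaine, and Fosb at 6.77 and 7.49 CPM against 7.53 and 7.03 CPM. Egr1, Nr4a1 and Homer1, a synaptic scaffold, overlapped between treatments. Arc, which acts in the removal of AMPA receptors from synapses, was at 38.3 and 31.3 CPM against 17.4 and 25.0 CPM (log2 -0.71, adjusted p = 0.987). Npas4, an activity-dependent transcription factor, was at 33.6 and 26.1 CPM against 23.0 and 13.9 CPM (log2 -0.73, adjusted p = 0.98). Bdnf, the growth factor of synapses, was at 177 and 149 CPM against 143 and 119 CPM (log2 -0.34 ± 0.14, adjusted p = 0.98). In these 3 both cocaine libraries lay below both saline libraries, and edgeR called none of them with its filter on low counts. Without that filter Arc (adjusted p = 0.00474) and Npas4 (adjusted p = 0.00442) were called, 1 of 12 alternatives for each. Over the alternatives the change ran from -1.12 to -0.37 for Npas4, from -0.999 to -0.487 for Arc and from -0.48 to -0.20 for Bdnf.

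No receptor or transmitter gene among the anchors was called in excitatory neurons. Drd1a, the D1 dopamine receptor, was at 8.49 and 5.58 CPM in saline and 8.17 and 6.47 CPM in cocaine, and Drd2 had 3 and 6 UMIs against 8 and 9 UMIs, below the filter. Gria1, an AMPA receptor subunit, was at 164 and 170.0 CPM against 200.0 and 187 CPM (log2 0.19 ± 0.10, adjusted p = 0.98), with both cocaine libraries higher. Grin2b, an NMDA receptor subunit, was at 321 and 311 CPM against 311 and 358 CPM. The neuropeptide gene Cck was at 453 and 421 CPM against 457 and 667 CPM, both cocaine libraries higher and library 8 apart from the other 3. Rab3a, of synaptic vesicles, was at 1140.2 and 1236 CPM against 1158.5 and 1540 CPM. Nrgn, a calmodulin-binding protein of dendritic spines, overlapped between treatments.

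Within excitatory neurons, 19 of 26 deposited clusters had enough cells to be tested, and 7 of 137418 pairs of a gene and a cluster were called (0.00509%), in 4 clusters. In Exc_25, Synpr, a vesicle protein, was at 11.9 and 10.7 CPM in saline and 56.4 and 39.4 CPM in cocaine (log2 2.08, adjusted p = 0.00888). Nfib, a transcription factor, was there at 37.3 and 78.1 CPM against 154 and 125 CPM (log2 1.18, adjusted p = 0.0373). Rab3b, a vesicle GTPase, was at 8.49 and 19.5 CPM against 42.0 and 52.8 CPM (log2 1.65, adjusted p = 0.0481). All 3 rose in that cluster, with no overlap between treatments. Synpr had 7 and 12 UMIs in saline and 55 and 68 UMIs in cocaine, and Rab3b had 5 and 22 UMIs against 41 and 91 UMIs.

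In Exc_1, Gpx3, a secreted glutathione peroxidase, was at 36.1 and 33.9 CPM in saline and 125 and 102 CPM in cocaine and rose by 1.57 (log2, adjusted p = 0.035). The non-coding 9530059O14Rik rose there by 1.59 (adjusted p = 0.0264), from 40.9 and 36.0 CPM to 51.5 and 143 CPM. Library 6 had only 10 cells in Exc_1, with 17 UMIs of Gpx3 and 7 UMIs of 9530059O14Rik. In Exc_21, Chgb, a granin of dense-core vesicles, fell from 919 and 1052 CPM to 438 and 690.4 CPM (log2 -0.80, adjusted p = 0.0303). In Exc_10, 2610524H06Rik fell from 122 and 98.9 CPM to 26.5 and 43.9 CPM (log2 -1.37, adjusted p = 0.0474). Its UMIs there were 13 and 129 in saline and 4 and 40 in cocaine. Library 5 had only 10 cells in Exc_10 and library 6 had 19 cells. Across the tested clusters, 2610524H06Rik was lower in both cocaine libraries in 15 of 19 (median log2 -0.44) and Chgb in 12 of 19 (median -0.28). Nfib was higher in 11 of 19 (median 0.41), 9530059O14Rik in 11 and lower in 2 of 19 (median 0.52), and Synpr higher in 6 and lower in 2 of 16 (median 0.11, from -1.0 to 2.08). Rab3b was higher in 4 of 8 (median 0.61) and Gpx3 in 4 of 9 (median 0.48). Each of the 7 was called in 1 cluster.

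Lists of genes of other cell types also leaned to 1 side in endothelial cells, without a call. Of 16 myelin genes 8 were higher in both cocaine libraries (50%, against 12.7% of all genes), with a median of 0.83. The summed oligodendrocyte markers were there at 63.9 and 72.0 CPM in saline and 310.2 and 89.5 CPM in cocaine. Library 8 and library 6 were both above saline. Under the alternatives the count was 3 to 10 and the median 0.33 to 1.16. Of 11 homeostatic microglia genes 7 were lower (63.6%, against 19.8% of all genes, median -0.31), with 6 to 7 and a median of -0.76 to -0.17 under the alternatives. The summed microglia markers were at 105 and 85.2 CPM in saline and 65.6 and 78.4 CPM in cocaine. The part of RNA from these other cells in the 2 lists was not tested. In the interferon and antigen presentation list 8 of 23 genes were lower (34.8%, against 19.8% of all genes, median -0.36).

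The remaining lists with at least 50% of members in 1 direction were in smaller classes or at low levels. In oligodendrocyte precursors 6 of 12 genes of GABA receptors, synthesis and transport were higher in both cocaine libraries (50%, against 16.3% of all genes, median 0.35). In this class the summed markers of inhibitory neurons were at 285 and 258 CPM in saline and 344 and 349.8 CPM in cocaine. Those of excitatory neurons were at 106 and 91.7 CPM against 134 and 125 CPM, and those of astrocytes at 1503.5 and 1562 CPM against 1581 and 2135 CPM. All 3 sums were higher in both cocaine libraries, and their part in the list was not tested. Under the alternatives the count was 2 to 5 and the median 0.06 to 0.49, so that none of them reached 6 members. In newly formed oligodendrocytes 7 of 11 genes of calmodulin and CaMKII signalling were lower (63.6%, against 16.2% of all genes, median -0.37), among them Calm2, a calmodulin gene, at 1071 and 1011 CPM in saline and 802 and 668 CPM in cocaine, and with equal numbers of cells the count was 4. The list holds neuronal genes, and the summed excitatory neuron markers in this class were at 136 and 89.6 CPM in saline and 50.1 and 53.5 CPM in cocaine. They too were lower in both cocaine libraries, and their part was not tested. In excitatory neurons 5 of 10 angiogenic endothelial genes were lower (50%, against 13.7% of all genes, median -0.34). Red blood cell genes in this class, given above, were also lower in both cocaine libraries, while the summed endothelial markers overlapped, at 32.3 and 23.8 CPM in saline and 26.7 and 29.2 CPM in cocaine. Their part in the list was not tested. Plvap, a protein of fenestrated vessels, was there at 42.5 and 43.7 CPM against 26.6 and 31.5 CPM (log2 -0.59, adjusted p = 0.389).

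In the classes without a call, the genes with the lowest p are given as values. Some of them were called under an alternative, most often without the filter on low counts. In mature oligodendrocytes Srsf5, a splicing factor, was at 231 and 281 CPM in saline and 105 and 101 CPM in cocaine (log2 -1.29 ± 0.26, adjusted p = 0.108). Actg1, gamma actin, was at 1049.6 and 1445 CPM against 653 and 569 CPM (log2 -1.02, adjusted p = 0.199). Prima1, which anchors acetylcholinesterase to membranes, was at 72.8 and 55.2 CPM against 16.9 and 13.2 CPM (log2 -2.11, adjusted p = 0.286). All 3 were lower in both cocaine libraries. In the other direction stood Ahsa1 and Hsph1, given above, and Scrg1 at 12.6 and 5.52 CPM against 54.1 and 83.8 CPM (log2 2.68, adjusted p = 0.286).

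In excitatory neurons Tubb2b, a beta tubulin of growing neurites, was at 20.6 and 25.5 CPM in saline and 43.9 and 40.7 CPM in cocaine (log2 0.84 ± 0.16, adjusted p = 0.312). Clmn was at 15.1 and 14.4 CPM against 25.2 and 23.8 CPM (log2 0.71 ± 0.13, adjusted p = 0.312). Tmem100 had 0 and 0 UMIs in saline and 5 and 13 UMIs in cocaine. The lower genes Fap, Shc1 and Cd72 were all under 8 CPM, for example Shc1, an adaptor of growth factor receptors, at 3.20 and 3.48 CPM against 1.18 and 1.20 CPM. None of the 6 overlapped between treatments.

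In microglia Id2, an inhibitor of helix-loop-helix factors, was at 621 and 475 CPM in saline and 801 and 1018 CPM in cocaine, and Picalm, of clathrin endocytosis, at 138 and 129 CPM against 182 and 268 CPM. Rprd1a had 0 and 0 UMIs against 3 and 7. Isg15, a ubiquitin-like protein induced by interferon, was at 47.6 and 84.1 CPM against 22.5 and 21.3 CPM, and AW112010 at 90.2 and 89.0 CPM against 40.9 and 39.6 CPM. Cirbp, a cold-induced RNA-binding protein, was at 308 and 391 CPM against 215 and 177 CPM. The adjusted p was 1 for each of these genes.

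In astrocytes Gtf3c6, a subunit of a factor of RNA polymerase III, was at 21.4 and 50.7 CPM in saline and 94.9 and 113 CPM in cocaine, and Uxs1 at 7.14 and 0 CPM against 45.0 and 33.8 CPM. Lonp1, a mitochondrial protease, was at 42.8 and 33.8 CPM against 5.00 and 3.98 CPM, and Erc1 at 42.8 and 39.4 CPM against 12.5 and 7.95 CPM. Myoc stood at 199.8 and 113 CPM against 2.50 and 0 CPM, but its 28 and 20 UMIs in saline came from 1 cell in each library. All had an adjusted p of 0.995.

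Newly formed oligodendrocytes had the fewest tested genes. Pdcd4, an inhibitor of translation, was at 187 and 334 CPM in saline and 571 and 648 CPM in cocaine (log2 1.19), and Yipf3 at 51.0 and 40.7 CPM against 100.2 and 167 CPM. Gnl2 had 1 and 2 UMIs against 9 and 13 UMIs. Matn1, a matrix protein, was at 221 and 579 CPM against 160.3 and 147 CPM (log2 -1.45, adjusted p = 0.86). Cyr61 had 9 and 6 UMIs against 0 and 0, and Baz2a 7 and 6 against 0 and 1. The cocaine and saline libraries did not overlap for any of the 6, at a depth of few UMIs for 3 of them.

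Some genes lay on the same side in most classes. Of 2791 genes tested in all 8 classes, 13 were higher in both cocaine libraries in at least 6 classes and 6 were lower in at least 6. Genes named here were chosen after their values were seen. Ppia, the cyclophilin that binds cyclosporin, was higher in 8 of 8 (median log2 0.43), and in excitatory neurons it was at 940.5 and 1368.5 CPM in saline and 1533 and 1560 CPM in cocaine. Dynll1, a dynein light chain, was higher in 7 (median 0.41). Srsf5 was lower in 8 of 8 (median -0.43), and in excitatory neurons it was at 346 and 300.4 CPM in saline and 242 and 197 CPM in cocaine. Cirbp was lower in 6 (median -0.76), in endothelial cells at 370.0 and 427 CPM against 296 and 170.1 CPM. None of these was called in any class by the main edgeR fit over all cells of a class and the adult libraries. Under alternatives, Srsf5 was called in mature oligodendrocytes without the filter (adjusted p = 0.00132) and, with the filter, without cluster Oligo_13 (adjusted p = 0.0363). The classes of a library share its mice, its preparation and its free RNA.

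The response to cocaine at 48 h was set against that at the other phases by an interaction term. Library 3 had too few astrocytes, oligodendrocyte precursors and newly formed oligodendrocytes, so that in these classes saline at maintenance was 1 library. Against maintenance, 0 of 60493 pairs of a gene and a class were called by edgeR (0%), with 2313 at an unadjusted p below 0.05 and 11 in DESeq2. Against 15 days of withdrawal, 6 were called (0.00992%), with 2597 at an unadjusted p below 0.05. All 6 were in inhibitory neurons, and the 5 genes other than Pax6 had no more than 52 UMIs in a library of 48 h. Endothelial Cdkn1a was not among them: its difference was 0.79 against maintenance (adjusted p = 0.997) and 1.18 against 15 days (adjusted p = 0.385), so a difference from the other phases was not shown for it.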

How the data were processed

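Droplet libraries of PFC cells from pooled adult mice were used, of which 4 of 12 belong to 48 h of withdrawal. The authors aligned reads to mm9 (NCBIM37) with Cell Ranger and clustered cells with Seurat 2.1.0. The deposited values are raw UMI counts of 26145 genes per cell, and the deposited annotation also holds the mitochondrial share of each cell as a fraction, which was not used for tests. How doublets were treated was not examined here, and no doublet caller was run. Classes are the deposited cluster names without their number.

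After removal of 13 mitochondrial genes and 143 genes of ribosomal proteins, CPM were computed over the other 25989 genes. UMIs were summed per library and class (at least 10 cells) and tested in R 4.3.3 with edgeR 4.0.16: its filter on low counts, TMM scaling and robust quasi-likelihood tests over the adult libraries with 6 group means: 12 libraries, or 11 in astrocytes, oligodendrocyte precursors and newly formed oligodendrocytes, where library 3 had fewer than 10 cells and saline at maintenance was 1 library. P-values were adjusted by Benjamini-Hochberg over all genes of a class. Alternatives were DESeq2 1.42.0, DESeq2 size factors, no filter, the 4 libraries alone, depth per cell as a covariate, equal cells, at least 30 cells, and each library left out. The scripts were tested on simulated data. Shares have 95% Wilson intervals, which cover counting error only.

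Labels do not give batches or say more of the pooled mice, so p-values measure the spread between libraries. The members and gene lists were chosen with earlier results of these data known. Named genes are, per class, the 5 called genes with the largest rise and fall that do not overlap and average at least 10 CPM, called list members, genes called in excitatory clusters, the 3 lowest p per direction where a class has no call, and 15 anchor genes in excitatory neurons. Results of some items are not reported here.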

Additional observations from a re-analysis of the deposited data

Results flagged for a closer look

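The difference between the change at 48 h and the change at 15 days of withdrawal passed the interaction test of edgeR for 6 genes, all in inhibitory neurons, of which 5 are described. On the log2 scale it was 5.22 for Ly6a (adjusted p = 0.000133), 4.02 for Ly6c1 (adjusted p = 0.00158), 2.55 for Itm2a (adjusted p = 0.00234), 3.19 for Sepp1 (adjusted p = 0.0162) and 4.64 for Pax6 (adjusted p = 0.0316). At 48 h the UMIs in saline libraries 5 and 7 and then cocaine libraries 6 and 8 were 1, 2, 8 and 21 for Ly6a, 3, 7, 8 and 30 for Ly6c1, and 10, 21, 13 and 52 for Itm2a. Ly6c1 and Itm2a are markers of endothelial cells and are members of the endothelial marker list. In inhibitory neurons that list summed to 34.6 and 33.6 CPM in saline and 117 and 102 CPM in cocaine. Of this, Ly6c1 alone was at 6.49 and 7.35 CPM in saline and 28.3 and 28.8 CPM in cocaine. Itm2a was at 21.6 and 22.0 CPM against 46.0 and 49.9 CPM. The sums thus restate these genes in large part, and the part of endothelial RNA in these differences was not tested. At 15 days each of the 5 had a negative change, from -0.58 for Pax6 to -2.01 for Ly6c1. That fall passed the edgeR test for Ly6a (adjusted p = 2.14e-05), Ly6c1 (6.15e-05), Itm2a (0.000936) and Sepp1 (0.031), and not for Pax6. The changes at 48 h were 3.30 for Ly6a (adjusted p = 0.0627), 2.01 for Ly6c1 (0.522), 1.16 for Itm2a (0.595) and 2.04 for Sepp1 (0.442). Of the 5, only Pax6 was called at 48 h.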

How the results depend on the processing

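Calls were few and moved with the settings, and with 2 libraries a group 1 library decided many of them. DESeq2 gave 3 calls in excitatory and 3 in inhibitory neurons, 5 in astrocytes, 0 in oligodendrocyte precursors, 4 in mature oligodendrocytes, 2 over the excitatory clusters and 11 interactions with maintenance. Without the filter on low counts there were 59 in excitatory and 34 in inhibitory neurons, 2 in astrocytes, 29 in endothelial cells, 7 in precursors, 3 in newly formed and 8 in mature oligodendrocytes, 27 over the clusters, and 39 and 239 interactions with maintenance and 15 days. The 4 libraries alone gave 3 in excitatory neurons, 0 in inhibitory neurons, 1 in astrocytes, 8 in endothelial cells, 0 in precursors and 4 in mature oligodendrocytes. With the depth covariate there were 0 in inhibitory neurons, 1 in astrocytes and 1 in precursors. With equal cells there were 0 in inhibitory neurons, 0 in endothelial cells and 0 in precursors. Inhibitory neurons had 0 calls with DESeq2 size factors, 2 with at least 30 cells and, chosen after seeing the data, 0 without haemoglobin genes; precursors had 1 without OPC_2 and mature oligodendrocytes 1 without Oligo_13, also chosen after seeing the data. A fit with at least 30 cells could not be had for newly formed oligodendrocytes.

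Leaving out each library in turn gave 0 to 42 calls in inhibitory neurons, 0 to 5 in astrocytes, 0 to 22 in endothelial cells, 0 to 5 in microglia, 0 to 11 in precursors, 0 to 1 in newly formed and 0 to 7 in mature oligodendrocytes, 5 to 11 over the excitatory clusters, 2 to 15 interactions with maintenance and 2 to 32 with 15 days. The highest counts in inhibitory neurons, endothelial cells, microglia, precursors and mature oligodendrocytes came without library 6, and that in astrocytes without library 5. The lone library of a group is then assumed to vary like the others. The cause was not tested.

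Uncalled anchor genes of excitatory neurons changed sign. On the log2 scale, Fosb was 0.009 without the filter and 0.081 with equal cells, Nrgn 0.006 without the filter, Drd1a -0.041 with equal cells and Grin2b -0.028 with the depth covariate. Over the fits that leave out 1 library, the change ran from -0.39 to 0.026 for Fos, -0.056 to 0.07 for Fosb, -0.189 to 0.146 for Egr1, -0.189 to 0.109 for Nr4a1, -0.261 to 0.363 for Drd1a, -0.034 to 0.158 for Grin2b, -0.047 to 0.354 for Rab3a and -0.219 to 0.183 for Nrgn. No called gene changed sign. List counts were retaken with TMM scaling, equal cells and no haemoglobin genes, chosen after seeing the data. No paired analysis was possible because the labels give no replicate numbers that tie a cocaine to a saline library.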
